A study of Mus musculus with 20 samples.

Results

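Clade A is a large branch of the serpin family in the mouse, and 10 of its genes were described here: Serpina1a, Serpina1b, Serpina1c, Serpina1d, Serpina1e, Serpina4-ps1, Serpina7, Serpina9, Serpina11 and Serpina12. They were chosen by name from a table of 46078 genes, with earlier results of these data known. Of the 10, 9 carried their symbol in the table and Serpina4-ps1 was found by its Ensembl identifier. The study read liver RNA of mice, and 16 libraries in 4 groups of 4 were used. PGZ livers came from db/db mice given 20 mg/kg of pioglitazone, an insulin-sensitizing ligand of PPAR-gamma. DLE livers came from db/db mice given 200 mg/kg of a leaf extract of Dendrocalamus latiflorus, a bamboo. Model livers came from db/db mice given saline, and normal livers from saline-treated C57BL/6J wild-type mice. Treatment ran for 12 weeks in the db/db groups, and the labels give no duration for normal mice. All db/db mice share a defect in Lepr, the gene of the leptin receptor, and grow obese and diabetic. Sex, age and the background strain of db/db mice are not given in the sources used here, so the mutation and any strain difference cannot be told apart. A group treated with white tea extract was not analysed here.

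Serpins that inhibit proteases present an exposed reactive centre loop as bait. The protease cuts the loop, stays bound to it, and is dragged across the serpin and disabled. Members without this activity carry hormones or serve in other ways. In liver, clade A supplies much of the inhibitor protein of plasma. The human SERPINA1 product, alpha-1-antitrypsin, restrains neutrophil elastase, and mice carry several copies of that gene in place of one. Serpina7 encodes thyroxine-binding globulin, a carrier of thyroid hormone in blood. Serpina12 encodes vaspin, first known as an adipokine and an inhibitor of kallikrein 7. SERPINA9, or centerin, is known in humans from germinal-centre B cells. Serpina11 is little studied, and Serpina4-ps1 is an unprocessed pseudogene, named for the kallistatin gene SERPINA4 of humans.

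The copies Serpina1a to Serpina1e are so alike that their sequences bear on how their reads can be told apart. Over 1239 aligned coding bases of GENCODE transcripts (GRCm38), any pair was between 96.3% and 98.5% identical, and Serpina1a and Serpina1c were the closest pair with 19 differences. Of all 100-base windows of the coding sequence, 80.9% of those of Serpina1e, 72.0% of Serpina1b and 70.1% of Serpina1d occurred in no other copy. Only 38.7% of the windows of Serpina1a and 38.2% of those of Serpina1c did so. The differences were not spread evenly. Across the 5 copies 6.9% of coding columns varied, against 18 of the 60 columns in the most variable stretch of that length, coding bases 1101 to 1160, which codes for part of the reactive centre loop. The stretch is shown from each copy because it is where the 5 inhibitors differ most. Capitals mark letters that differ from the commonest letter of that column; in 2 columns the commonest letter was tied and the first in the alphabet was taken. All lie on the minus strand of chromosome 12 in GRCm38, Serpina1a at chr12:103853757-103853816, Serpina1b at chr12:103728324-103728383, Serpina1c at chr12:103895094-103895153, Serpina1d at chr12:103763762-103763821 and Serpina1e at chr12:103947100-103947159.
Serpina1a: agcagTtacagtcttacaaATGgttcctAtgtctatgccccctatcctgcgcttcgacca
Serpina1b: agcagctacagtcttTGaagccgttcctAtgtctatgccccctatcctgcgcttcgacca
Serpina1c: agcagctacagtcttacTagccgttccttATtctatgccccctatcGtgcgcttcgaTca
Serpina1d: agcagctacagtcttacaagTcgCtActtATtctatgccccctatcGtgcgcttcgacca
Serpina1e: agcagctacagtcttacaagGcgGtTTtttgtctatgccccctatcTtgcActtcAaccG

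The promoters of the same copies were alike too, and they are shown because Serpina1e and its neighbours differed widely in level. RefSeq promoter windows (250 bases before to 50 after the gene start, GRCm38.p6) were found for 8 of the 10 genes, all but Serpina9 and Serpina4-ps1. Between Serpina1 copies the aligned parts were 91.7% to 98.4% identical, and the closest pair was Serpina1b and Serpina1e, with 4 differences over 248 aligned bases. A stretch of 120 bases from each window follows, with letters that differ from the commonest one in capitals. The stretches lie on the minus strand, Serpina1a at chr12:103863611-103863730, Serpina1b at chr12:103738186-103738305, Serpina1c at chr12:103904948-103905067, Serpina1d at chr12:103773620-103773739 and Serpina1e at chr12:103956946-103957065.
Serpina1a: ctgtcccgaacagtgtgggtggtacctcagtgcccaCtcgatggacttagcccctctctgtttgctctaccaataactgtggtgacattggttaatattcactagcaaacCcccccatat
Serpina1b: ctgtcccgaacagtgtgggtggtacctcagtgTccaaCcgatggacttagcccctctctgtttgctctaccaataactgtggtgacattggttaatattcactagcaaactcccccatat
Serpina1c: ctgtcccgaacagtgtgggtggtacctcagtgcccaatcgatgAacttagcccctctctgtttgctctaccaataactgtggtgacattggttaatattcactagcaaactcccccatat
Serpina1d: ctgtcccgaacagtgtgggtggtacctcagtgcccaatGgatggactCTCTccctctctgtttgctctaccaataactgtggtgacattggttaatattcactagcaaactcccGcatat
Serpina1e: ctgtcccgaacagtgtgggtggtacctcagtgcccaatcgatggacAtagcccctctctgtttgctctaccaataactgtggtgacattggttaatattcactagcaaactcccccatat
The STAT5 motif TTCNNNGAA, searched on both strands, was found in the promoter of Serpina11, against 8.3% of all 32851 promoter windows. It was in none of the 5 Serpina1 windows, nor in those of Serpina7 and Serpina12. The HNF1 half-site motif GTTAAT was in all 5 Serpina1 windows and those of Serpina7, against 7.1% of all windows. The printed stretch was placed around it. The TATA motif TATAAA was found for Serpina7 alone, against 13.6% of all windows.

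Values are deposited read counts, given here as CPM, the reads of a gene scaled by the size of its library, with TMM scaling factors. Library totals were 19332589 to 22415530 reads in PGZ, 18300173 to 24105179 in DLE, 17993327 to 25119799 in model and 16922833 to 21622959 in normal livers. A gene was called when its Benjamini-Hochberg adjusted p from edgeR's quasi-likelihood test was under 0.05 over 15744 tested genes, and every adjusted p of a gene below is from that test. The labels do not say that each library came from a separate mouse, so p-values measure the spread between libraries. All 13 hepatocyte markers found were detected in every library, and their summed level was 47600 to 144000 CPM. Libraries stood apart by acute-phase RNA, the inflammatory output of hepatocytes. The summed level of 15 acute-phase genes was 42800 CPM in model_PGZ_328 and 6960 to 9880 in the other PGZ libraries. It was 47300 CPM in model_DLE_361 and 6080 to 8070 in the other DLE libraries. Model libraries spread most widely: model_327 held 174000 CPM and model_387 held 85000, whereas model_407 held 15900 and model_329 held 7230. Normal libraries held 7580 to 10000 CPM. Summed neutrophil markers were 4.88 to 488 CPM in PGZ, 0.759 to 190 in DLE, 2.37 to 2440 in model and 1.32 to 4.84 in normal livers. Summed Kupffer cell and macrophage markers were 317 to 650 CPM in PGZ, 202 to 304 in DLE, 214 to 2050 in model (highest in model_387) and 86.9 to 254 in normal livers. Relative to normal livers, 6 of these 14 markers were called higher in PGZ and 11 in model livers, and 6 of 10 endothelial and stellate markers in PGZ livers. The part of these cells in the results below was not tested. In bulk liver, fewer cells of a type and less RNA per cell cannot be told apart.

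In model livers relative to normal livers, 4 of the 10 genes were called lower (Serpina1c, Serpina1e, Serpina4-ps1 and Serpina9) and Serpina7 was called higher. Of all genes tested, 2.9% were called lower, 6.18% higher and 9.08% in either direction. The median log2 fold change was -1.17 over the 10 genes and 0.07 over all genes tested. All 10 passed the filter on low counts. Serpina9 passed it through the normal group alone, so that a lower call was the only one open to it in each comparison with normal livers; it is in the counts below, which are a description. The groups did not overlap for 7 of the 10, with 6 lower and 1 higher in model livers, where 13.7% of all genes did not overlap. At an unadjusted p under 0.05 the members counted 7 (28% of all genes). The PGZ and DLE groups were set against the same normal libraries. In PGZ livers 6 of the 10 genes were called lower and none higher, where 6.08% of all genes were called lower, 6.15% higher and 12.2% in either direction. In PGZ livers 8 of the 10 did not overlap normal livers (32.2% of all genes) and 9 had an unadjusted p under 0.05 (30.2% of all genes). In DLE livers 5 of the 10 genes were called lower and none higher, where 1.7% of all genes were called lower, 1.84% higher and 3.54% in either direction. In DLE livers 4 did not overlap normal livers (12.3% of all genes) and 6 had an unadjusted p under 0.05 (15.8% of all genes). The 5 called genes of model livers became 2 without normal_346, normal_349, normal_409 or model_327 and 3 without model_407, and the 5 of DLE livers became 3 without model_DLE_401.

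**Figure D1:**
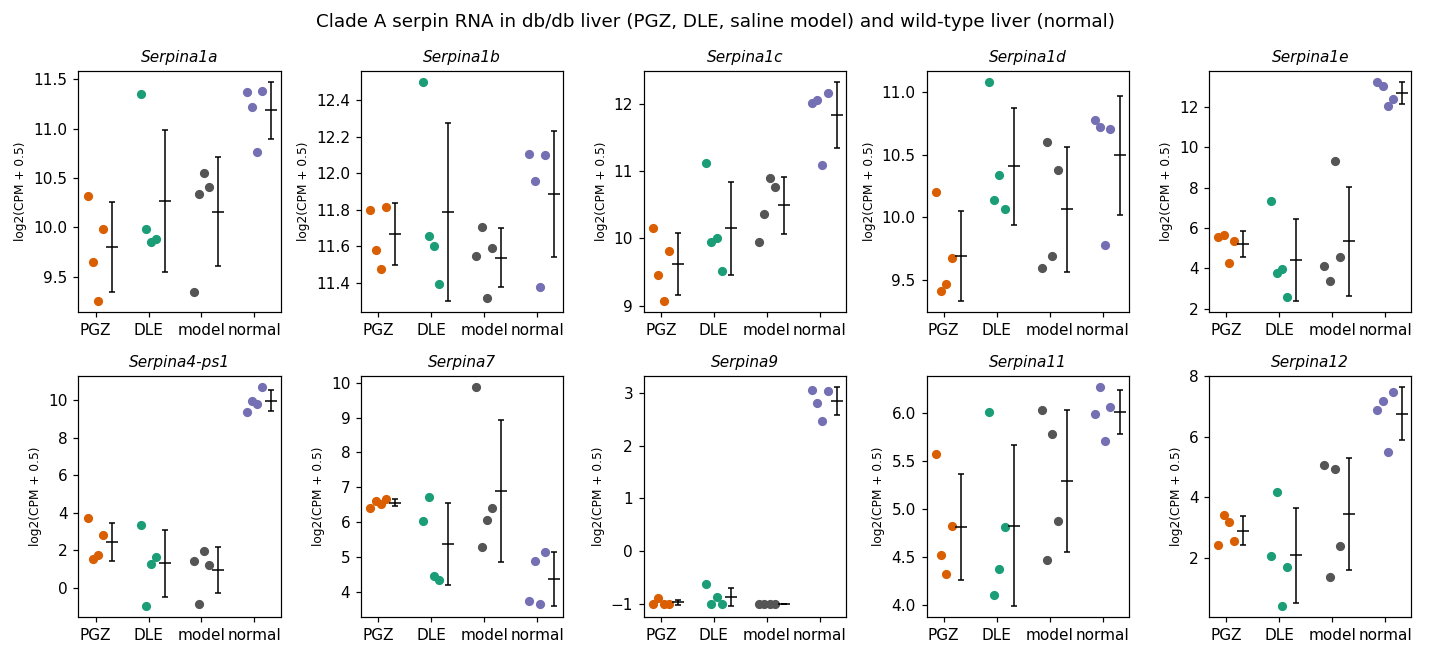
Level of each gene as log2(CPM + 0.5) in PGZ, DLE, model and normal livers; each point is a library, the bars are the mean ± SD of 4 libraries, and the vertical axis differs between panels. Serpina4-ps1 and Serpina9 are far lower in all 12 db/db libraries than in the 4 normal ones, and Serpina1e is low in the db/db groups except for model_387.

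The joint RNA level of the alpha-1-antitrypsin copies, Serpina1a to Serpina1e, was lower in model than in normal livers. The sum of the 5 copies does not depend on how counted reads were split between them. Reads that match several copies would be missing from the sum if they were not counted. The copies differ in how many such reads they can give. The treatment of these reads is not given in the sources used here, and their part in the sum was not tested. Summed over the 5 copies, the level was 5900 ± 1110 CPM in PGZ, 7790 ± 3480 in DLE, 6960 ± 1030 in model and 18400 ± 4780 in normal livers (SD, n = 4 each). The model libraries held 5410, 7500, 7420 and 7520 CPM, against 22600, 20700, 11600 and 18700 CPM in normal libraries, with no overlap. In model livers the sum fell by 1.40 on the log2 scale relative to normal livers (SE 0.33, adjusted p = 0.017). The call was lost without normal_346 (log2 fold change -1.29, adjusted p = 0.053). It was also lost without the 2 model libraries highest in acute-phase RNA, model_327 and model_387 (log2 fold change -1.29, adjusted p = 0.12), and kept without these, model_PGZ_328 and model_DLE_361 (-1.29, adjusted p = 0.029).

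Serpina1e carried most of that difference. It stood at 45.9, 50.2, 18.9 and 41 CPM in PGZ libraries and at 160, 13.4, 15.1 and 5.51 CPM in DLE libraries. Model libraries held 17.1, 9.84, 642 and 22.9 CPM, against 9610, 8410, 4180 and 5370 CPM in normal libraries. No db/db library reached the lowest normal one, and the highest of them, model_387, stood far above the other model libraries. In model livers Serpina1e fell by 5.32 on the log2 scale (SE 1.39, adjusted p = 0.028), and it was also called lower in PGZ livers (log2 fold change -7.47, adjusted p = 0.0065) and in DLE livers (-7.15, adjusted p = 0.014). Without model_387 the log2 fold change of model versus normal was -8.69 (adjusted p = 0.00097). The model call was lost without normal_346 (adjusted p = 0.057), normal_349 (0.057), normal_409 (0.058), model_327 (0.071) or model_407 (0.052), with log2 fold changes between -5.42 and -4.93.

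Serpina1c was the other copy called in all 3 db/db groups. PGZ libraries held 1140, 704, 537 and 896 CPM and DLE libraries 2220, 987, 1030 and 731 CPM. Model libraries held 986, 1310, 1910 and 1730 CPM, against 4130, 4270, 2180 and 4550 CPM in normal libraries. Only model_DLE_361 overlapped the normal range, by a small margin over normal_376. The log2 fold change relative to normal was -2.21 in PGZ (adjusted p = 0.0021), -1.61 in DLE (0.026) and -1.35 in model livers (SE 0.38, adjusted p = 0.036). The model call was lost without normal_346 (adjusted p = 0.078), normal_349 (0.082), normal_409 (0.092), model_327 (0.08), model_387 (0.05) or model_407 (0.056). The DLE call was lost without normal_346 (0.066), normal_349 (0.069), normal_409 (0.075), model_DLE_373 (0.08), model_DLE_378 (0.079) or model_DLE_401 (0.09). An antisense gene, B430119L08Rik, shares 429 exonic bases with Serpina1c and averaged 607 CPM in PGZ, 911 in DLE, 1110 in model and 2450 in normal livers. The strand setting of the counting was not given in the sources used here, so reads of the pair cannot be told apart.

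The remaining copies differed less from normal livers. Serpina1a averaged 925 ± 286 CPM in PGZ, 1370 ± 822 in DLE, 1200 ± 375 in model and 2360 ± 434 in normal livers. Its log2 fold change was -1.35 in PGZ relative to normal (adjusted p = 0.03) and -0.98 in model relative to normal (SE 0.37, adjusted p = 0.1), which was not called although the groups did not overlap. The PGZ call was lost without normal_346 (adjusted p = 0.064), normal_349 (0.058), normal_409 (0.07), model_PGZ_360 (0.094), model_PGZ_404 (0.1) or model_PGZ_408 (0.064). In model_DLE_361 Serpina1a stood at 2600 CPM, within the normal range, and without that library Serpina1a was called lower in DLE (log2 fold change -1.3, adjusted p = 0.041). Leaving out the highest DLE library lowers the DLE mean by construction. Serpina1b, the most abundant copy in db/db livers, held 2840 to 3600 CPM in PGZ, 2690 to 5800 in DLE, 2550 to 3330 in model and 2660 to 4410 in normal livers. Serpina1d averaged 846 ± 229 CPM in PGZ, 1420 ± 512 in DLE, 1120 ± 383 in model and 1500 ± 415 in normal livers. In model relative to normal livers the log2 fold change was -0.37 for Serpina1b (SE 0.28, adjusted p = 0.4) and -0.42 for Serpina1d (SE 0.33, adjusted p = 0.42), and neither was called. The annotated span of Serpina1b contains that of Serpina1d, with no shared exonic base.

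The mean make-up of the Serpina1 reads differed between groups, although no share passed the adjusted test below. Serpina1e gave 0.657 ± 0.224% of the reads of the 5 copies in PGZ, 0.446 ± 0.53% in DLE, 2.35 ± 4.2% in model and 37 ± 6.14% in normal livers. Serpina1b gave 56 ± 4.62% in PGZ, 48.4 ± 2.56% in DLE, 43.7 ± 8.71% in model and 21.3 ± 2.23% in normal livers. Serpina1d gave 14.3 ± 1.73% in PGZ, 18.6 ± 1.69% in DLE, 15.9 ± 4.16% in model and 8.1 ± 0.618% in normal livers. Serpina1b held the largest share in every db/db library and Serpina1e in every normal library. Model minus normal, the share differed by -34.6 percentage points for Serpina1e, 22.4 for Serpina1b and 7.85 for Serpina1d, and none of these overlapped between groups. In the exact two-sided permutation test each gave p = 0.0286, the smallest that 4 against 4 libraries allow, and 0.0857 after adjustment over 15 tests, so none passed. An adjusted p under 0.05 would have needed most of the 15 tests to reach that smallest p, so this outcome decides little. Serpina1c kept 21.1 ± 3.94% in model livers and 20.5 ± 2.76% in normal livers, a difference within the spread. Its share was 13.6 ± 1.83% in PGZ and 15.6 ± 1.59% in DLE livers, and the difference from model livers was -7.47 points in PGZ and -5.53 in DLE, with no overlap (exact permutation p = 0.0286 each, adjusted 0.0857). These comparisons share the model libraries.

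**Figure D2:**
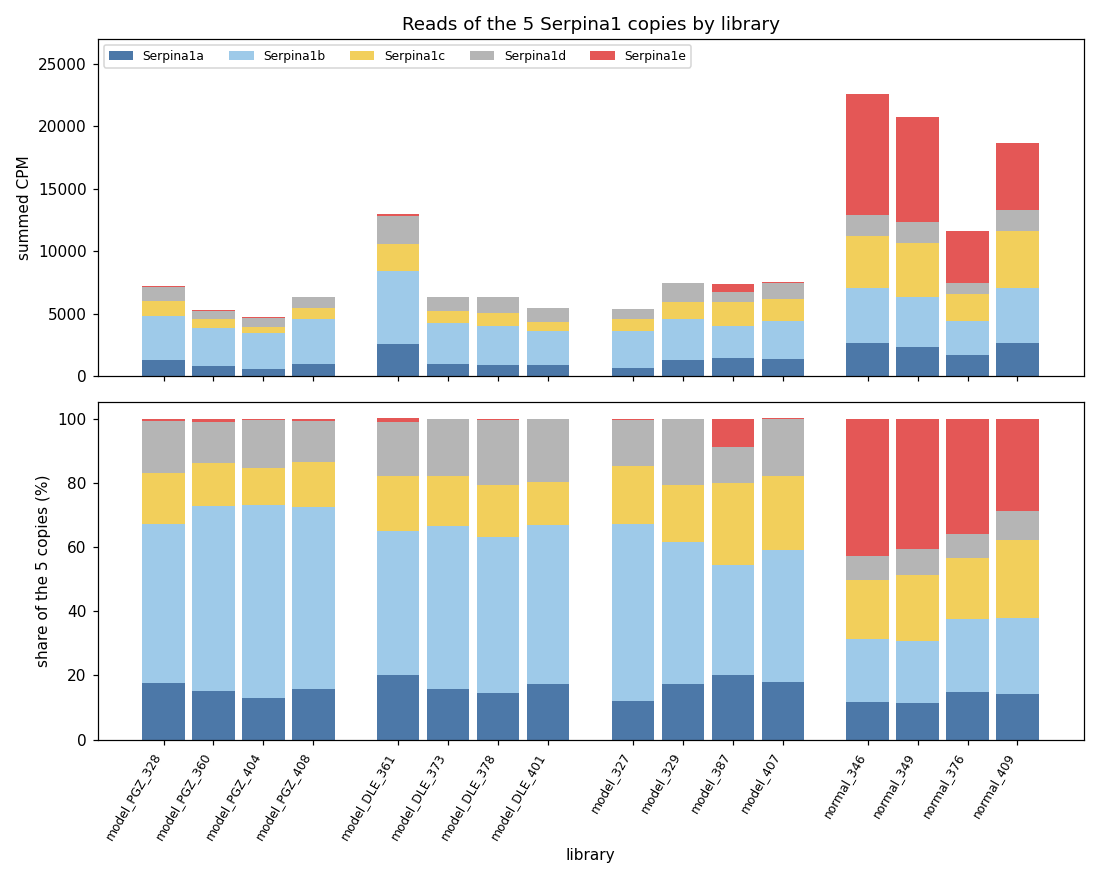
Summed CPM of Serpina1a to Serpina1e (upper panel) and the share of each copy in percent (lower panel), 1 bar per library, in PGZ, DLE, model and normal livers. Serpina1e fills 28.8% to 42.6% of the bar in normal libraries and at most 8.66%, in model_387, in db/db libraries.

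Serpina4-ps1, the pseudogene, was abundant in normal livers and nearly absent from db/db livers. It had 260, 59, 65 and 142 reads in PGZ libraries and 198, 0, 38 and 62 reads in DLE libraries. Model libraries had 45, 1, 83 and 43 reads, against 12462, 18859, 18508 and 24472 reads in normal libraries. The group means were 6.06 ± 4.67 CPM in PGZ, 3.55 ± 4.23 in DLE, 1.88 ± 1.4 in model and 1060 ± 436 in normal livers. No db/db library came near the normal range. The log2 fold change relative to normal was -7.46 in PGZ (adjusted p = 0.0012), -8.23 in DLE (0.0011) and -9.13 in model livers (SE 1.27, adjusted p = 0.00075). With any 1 library left out the model call was kept, with adjusted p between 0.0012 and 0.0049.

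Serpina9, the centerin gene, was a gene of low level in normal livers and was detected in db/db livers by single reads. Among db/db libraries, model_PGZ_360 held 1 read, model_DLE_361 held 3, model_DLE_378 held 1, and none was counted in the others. The normal libraries held 147, 121, 103 and 112 reads. The 0 reads of model livers, set against the 483 reads of normal livers, mean a level at least 193-fold lower, taking a floor of 3 reads over the group. The normal level was 601 times that of PGZ livers (exact 95% counting interval 107 to 23800) and 144 times that of DLE livers (55.7 to 529). Serpina9 passed the filter on low counts only through the normal libraries, so these levels are given as a description and its calls as lower in all 3 db/db groups support nothing further. Markers of B cells, the cells that express the human gene, summed to 5.43 to 15 CPM in PGZ, 5.14 to 11.3 in DLE, 2.63 to 38.9 in model and 8.57 to 15.4 in normal livers.

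Serpina12, which encodes vaspin, was lower in PGZ and DLE livers than in normal livers. PGZ libraries held 4.86, 10.1, 8.63 and 5.34 CPM and DLE libraries 3.71, 17.5, 0.814 and 2.73 CPM. Model libraries fell into a higher and a lower pair, with 33.4, 2.1, 29.9 and 4.72 CPM, against 119, 145, 44.7 and 179 CPM in normal libraries. The higher pair was model_327 and model_387, the libraries highest in acute-phase RNA; the part of that RNA in the result was not tested. No db/db library reached the lowest normal one. The log2 fold change relative to normal was -4.07 in PGZ (adjusted p = 0.011), -4.30 in DLE (0.017) and -2.80 in model livers (SE 0.87, adjusted p = 0.055), so the model difference was not called. DESeq2 called it (-2.78, adjusted p = 0.017), and a fit of only these groups did not (-2.79, adjusted p = 0.13). Without model_327 and model_387 the model value was -5.15 (adjusted p = 0.041), and without these and the PGZ and DLE libraries highest in acute-phase RNA it was also -5.15 but not called (adjusted p = 0.051). Both settings were chosen after the values were seen. They leave out the model libraries with the high Serpina12 values, which lowers the model mean by construction. The DLE call was lost without model_DLE_401 (-4.05, adjusted p = 0.059). The 10 adipocyte markers summed to 321 to 565 CPM in PGZ, 48.2 to 86.8 in DLE, 43 to 196 in model and 41.3 to 70.1 in normal livers, and 3 of the 6 tested, Cidea, Cidec and Fabp4, were called higher in PGZ relative to normal livers. Of the same 10 markers, Adipoq had 0 to 41 reads, Lep 0 to 1 and Plin1 0 to 9 over all libraries. The highest count of each was in normal_349, where all 10 markers were detected. The part of these markers in the Serpina12 result was not tested.

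Serpina7, the thyroid hormone carrier on chromosome X, was the member called higher in model livers, and 1 library set the size of the difference. PGZ libraries held 85, 96.7, 91.4 and 99.8 CPM and DLE libraries 64.8, 105, 21.2 and 19.7 CPM. Model libraries held 940, 38.1, 65.6 and 83.4 CPM, against 12.9, 29, 11.9 and 35 CPM in normal libraries. Every model and every PGZ library was above every normal one, while DLE libraries fell both inside and above the normal range. In model livers Serpina7 rose by 3.67 on the log2 scale (SE 0.91, adjusted p = 0.023). Without model_327, the library with the most acute-phase RNA, the value was 1.49 (adjusted p = 0.11), and the call was also lost without normal_346 (0.067), normal_349 (0.057), normal_376 (0.071) or normal_409 (0.055). DESeq2 gave no adjusted p for it in this comparison. PGZ libraries were the most uniform, with a mean of 93.2 ± 6.48 CPM against 282 ± 439 CPM in model and 22.2 ± 11.6 CPM in normal livers. The receptor gene Thra, which encodes thyroid hormone receptor alpha, fell by 2.0 on the log2 scale in model livers (43.1 ± 21.3 CPM, against 172 ± 29.1 CPM in normal livers; adjusted p = 0.0056).

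Serpina11 varied with the acute-phase libraries within each db/db group. It stood at 47.3 CPM in model_PGZ_328 and at 19.5 to 27.7 in the other PGZ libraries. It stood at 64 CPM in model_DLE_361 and at 16.7 to 27.6 in the other DLE libraries. It stood at 65 CPM in model_327 and 54.5 in model_387, against 21.7 in model_329 and 28.9 in model_407, and normal libraries held 52.1 to 76.9 CPM. The 4 high db/db libraries are those with the highest acute-phase sums of their groups; the part of that RNA in the result was not tested. Over all libraries Serpina11 was not called in model relative to normal livers (log2 fold change -0.60, SE 0.41, adjusted p = 0.35). With those 4 libraries left out, a setting chosen after the values were seen, it was called lower in PGZ (-1.5, adjusted p = 0.00024), DLE (-1.59, 0.00029) and model livers (-1.35, 0.0054). These libraries are the ones with the high Serpina11 values, so leaving them out lowers the db/db means by construction. With model_327 and model_387 alone left out the model value was also -1.35 and was not called (adjusted p = 0.18).

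**Figure D3:**
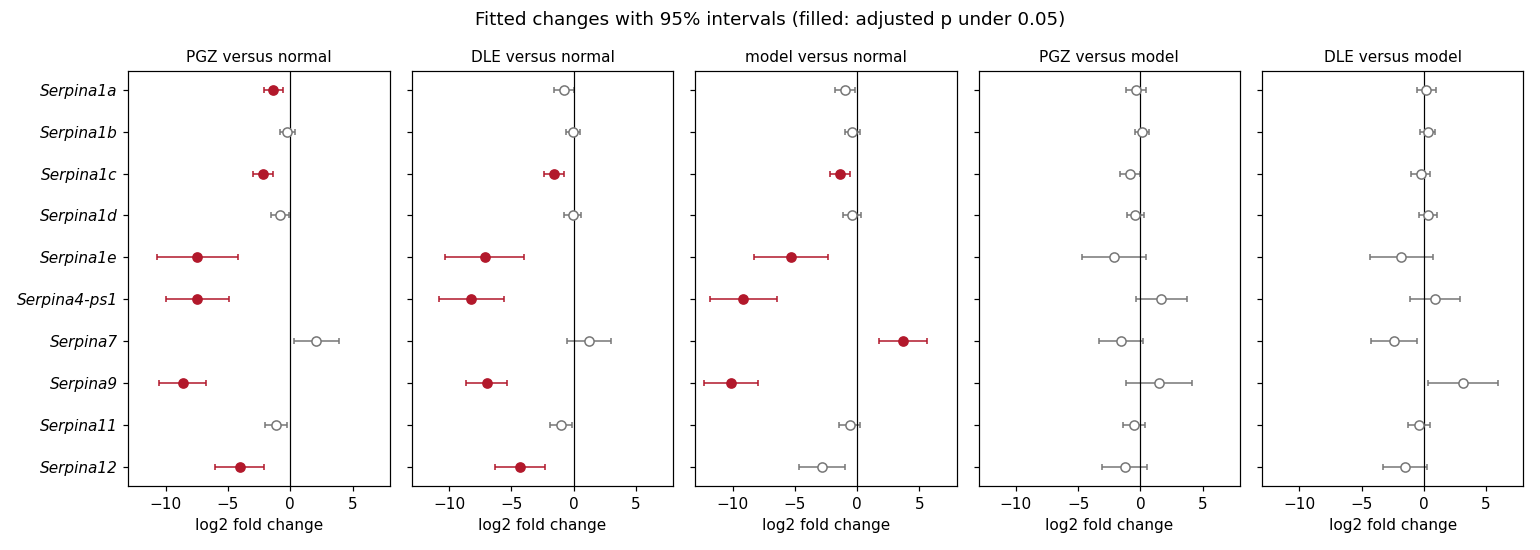
Fitted log2 fold change of each gene with its 95% interval in PGZ, DLE and model livers relative to normal livers, and in PGZ and DLE relative to model livers; filled points were called at an adjusted p under 0.05. Values of Serpina9 are fitted to groups with 0 to 4 reads and are no bound. Called genes lie to the left of 0 in every comparison with normal livers other than Serpina7 in model livers, and no gene is filled relative to model livers.

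None of the 10 genes was called by edgeR in PGZ or DLE relative to model livers, and none of the 9 to which DESeq2 gave a p, all but Serpina7, was called by DESeq2; the 2 comparisons share the model libraries. In PGZ relative to model livers, 2 of all tested genes were called by edgeR (0.0127%) and 127 by DESeq2 (0.807%), and at an unadjusted p under 0.05 the members counted 1 (9.78% of all genes), the same number with DESeq2. In DLE relative to model livers no gene was called by edgeR (0% of all genes), whereas DESeq2 called 2.4% of all genes and edgeR called 511 genes (3.16%) without model_329. The members at an unadjusted p under 0.05 with edgeR were Serpina7 and Serpina9 (14.3% of all genes). For Serpina9 that p rests on 4 DLE reads, 3 of them in model_DLE_361, against 0 model reads. The gene passed the filter only through the normal libraries, so its p supports nothing further. DESeq2 gave Serpina7 no p, and 0 of the other 9 were under 0.05. No member was free of overlap with model livers in PGZ (4.88% of all genes) or in DLE (2.69%). The member in PGZ was Serpina1c, at 818 ± 258 CPM in PGZ and 1480 ± 416 CPM in model livers. Its log2 fold change was -0.86, with a 95% interval of -1.65 to -0.07 (adjusted p = 0.48). For Serpina7 the log2 fold change was -1.60 in PGZ (-3.37 to 0.18, adjusted p = 0.55) and -2.42 in DLE relative to model livers (-4.25 to -0.59, adjusted p = 0.25). Without model_327 the PGZ value had the opposite sign (0.58, adjusted p = 0.72) and the DLE value was -0.25 (adjusted p = 0.95). For Serpina1e the log2 fold change was -2.15 in PGZ (-4.71 to 0.41, adjusted p = 0.57) and -1.83 in DLE (-4.36 to 0.70, adjusted p = 0.49). Both changed sign without model_387, to 1.23 in PGZ and 1.55 in DLE. The summed Serpina1 level had a log2 fold change of -0.24 in PGZ (-0.92 to 0.44, adjusted p = 0.84) and 0.16 in DLE (-0.52 to 0.84, adjusted p = 0.85), the second of which was -0.20 without model_DLE_361. In DLE relative to PGZ livers 0 of the 10 genes were called (0.00635% of all genes) and 0 did not overlap (8.43% of all genes), with 1 at an unadjusted p under 0.05 (9.63% of all genes) by edgeR and 1 by DESeq2; that gene by edgeR was Serpina1d, at 1420 ± 512 CPM in DLE and 846 ± 229 CPM in PGZ livers.

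Per kilobase of exon, the order of the genes changed along with Serpina1e and the pseudogene. In PGZ livers Serpina1b held 1350 ± 156 CPM per kb and Serpina1e 24.1 ± 8.61, and in DLE livers Serpina1b held 1530 ± 586 and Serpina1e 30 ± 46.1. In model livers Serpina1b (1240 ± 136), Serpina1c (1090 ± 305), Serpina1d (804 ± 275) and Serpina1a (655 ± 205) led, each overlapping its neighbour within 1 SD. They were followed by Serpina7 (115 ± 179), Serpina1e (107 ± 193), Serpina11 (26 ± 12.6), Serpina12 (4.75 ± 4.44) and Serpina4-ps1 (1.46 ± 1.09), with Serpina9 at 0. In normal livers Serpina1e led with 4260 ± 1570 CPM per kb, followed by Serpina1c (2780 ± 795), Serpina1b (1600 ± 342), Serpina1a (1290 ± 237), Serpina1d (1070 ± 297) and Serpina4-ps1 (827 ± 338). There Serpina1e and Serpina1c overlapped within 1 SD, as did each neighbouring pair from Serpina1b to Serpina4-ps1. Serpina11 (39.5 ± 6.26) and Serpina12 (33.1 ± 15.5) came next and overlapped, then Serpina7 (9.07 ± 4.73) and Serpina9 (1.84 ± 0.347). Assignment of reads between the Serpina1 copies limits these per-copy levels. In normal livers normal_376 was the lowest library for every one of the 10 genes except Serpina4-ps1. Alb, the albumin gene, was also lowest there, with 19600 CPM against 35500 to 60500 CPM in the other normal libraries.

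Except for Serpina7, the genes lie together on chromosome 12, between 103728156 and 104086724 (GRCm38). That interval is part of a run of 28 clade A genes over 800 kb (103614786 to 104414329), of which 18 were tested. In the order of their lowest coordinates they are Serpina1b, Serpina1d, Serpina1a, Serpina1c, Serpina1e, Serpina11, Serpina9, Serpina12 and Serpina4-ps1, and all but the last are read from the minus strand. Serpina11 and Serpina12, not called in model livers, lie on either side of Serpina9, so called genes were not contiguous. Of the tested genes outside the 10, Serpina10 (log2 fold change 1.91, adjusted p = 0.11) and Serpina6 (0.03, 0.97) lie at the lower end. Serpina6 encodes corticosteroid-binding globulin. At the upper end stand the Serpina3 genes, relatives of human antichymotrypsin.

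**Figure D4:**
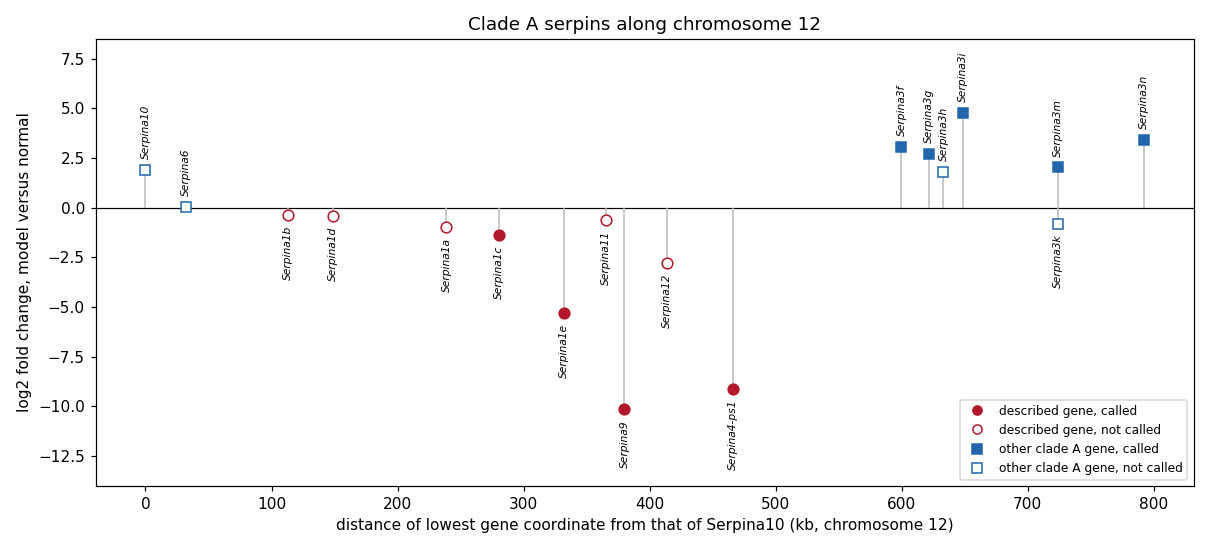
Log2 fold change in model relative to normal livers against the position along chromosome 12, in kb from the lowest coordinate of Serpina10; circles are the genes described here, squares the other clade A genes tested, and filled symbols were called. The 4 filled circles lie between about 280 and 466 kb and below 0, and the 5 filled squares lie beyond them and above 0; the value of Serpina9 is fitted to a group with 0 reads.

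Of a list of 17 other clade A genes, 16 were found and 9 were tested, 7 of the 9 being Serpina3 genes. In model relative to normal livers 5 were called higher and 0 lower, with a median log2 fold change of 2.03. Serpina3m stood at 213 ± 168 CPM in model and 52.3 ± 6.09 CPM in normal livers (log2 fold change 2.03, adjusted p = 0.013). Serpina3f stood at 15.4 ± 19.2 CPM in model and 1.82 ± 1.27 CPM in normal livers (3.07, adjusted p = 0.026), and Serpina3g at 65 ± 89 CPM in model and 9.99 ± 3.37 CPM in normal livers (2.70, adjusted p = 0.029). The SDs in model livers were near or above the means. Serpina3k was called lower in PGZ livers, at 1580 ± 852 CPM against 6790 ± 2950 CPM in normal livers (-2.10, adjusted p = 0.021). Reads of the Serpina3 genes, which are near copies of one another, may be split between them. Of 14 serpins of other clades tested, 4 were called higher and 1 lower in model livers. Serpinb1a, an intracellular inhibitor of neutrophil proteases, rose by 4.83 on the log2 scale (19.3 ± 20.3 CPM in model and 0.671 ± 0.23 CPM in normal livers, adjusted p = 0.006). Serpine2, an inhibitor of thrombin, fell by 4.75 (0.502 ± 0.401 CPM in model and 13.9 ± 8.05 CPM in normal livers, adjusted p = 0.0068).

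Among 13 tested targets and partners of clade A serpins, which include Ttr, Proc and the thyroid hormone receptors, Thra was the 1 gene called in model livers. Elane, which encodes neutrophil elastase, had 342 reads in model_PGZ_328, 53 in model_DLE_361 and 2527 in model_387. It had 6 reads in model_327, the library highest in acute-phase RNA, and 0 to 13 in the others. Prtn3, another of the neutrophil markers, had 4824 reads in model_387, 2292 in model_PGZ_328, 2677 in model_DLE_361 and 237 in model_327. In the same libraries, in that order, Mpo had 5881, 830, 102 and 1 reads, and Ctsg 1199, 124, 7 and 0. Of 18 hepatocyte factors known to act on serpin genes, 5 were called lower and 0 higher in model livers, with a median log2 fold change of -0.51. Socs2, a growth hormone target that damps the signal of its receptor, fell by 2.64 on the log2 scale (11.5 ± 3.83 CPM in model and 71.8 ± 30.1 CPM in normal livers, adjusted p = 0.0044). Bcl6, a repressor of transcription, fell by 1.58 (39.7 ± 4.75 CPM in model and 119 ± 75.3 CPM in normal livers, adjusted p = 0.022).

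Genes known to be more active in male than in female mouse liver moved along with Serpina1e and Serpina4-ps1. Of the 21 tested, 16 were called lower and 0 higher in model livers, with a median log2 fold change of -3.43. Their mean log2(CPM + 0.5) was 3.56 to 4.45 in PGZ, 2.91 to 4.53 in DLE, 3.79 to 4.95 in model and 8.01 to 9.1 in normal livers. Their part in the results on clade A was not tested. By likeness of profile over the 16 libraries, measured as the root-mean-square difference of centred log2(CPM + 0.5) among 13541 candidate genes, the same 3 genes stood nearest to Serpina4-ps1 and to Serpina1e. For Serpina4-ps1 they were Moxd1 (1.15), Hsd3b5 (1.22) and Selenbp2 (1.23), and for Serpina1e Moxd1 (1.15), Hsd3b5 (1.65) and Selenbp2 (1.72). All 3 belong to the male-biased list. Smaller values mean a closer match for a given gene. These were the largest values given here, for the genes that varied most between libraries. The root-mean-square spread of the gene itself was 3.83 for Serpina4-ps1 and 3.67 for Serpina1e. It was 2.11 for Serpina12, 1.47 for Serpina7 and 0.31 for Serpina1b, so values of different genes cannot be ranked against each other. The gene nearest to Serpina12 was Gtpbp4-ps1 (1.02), followed by Mup3 (1.08), a major urinary protein gene. Serpina7 was nearest to Dnajb9 (0.66), which encodes a co-chaperone of the endoplasmic reticulum, then Col4a1 (0.71) and Tgm2 (0.73). Serpina9 was nearest to A530083I20Rik (0.38), BC021767 (0.39) and Capn8 (0.45). In the db/db libraries its profile lies at or near the floor set by the added 0.5. Any gene of low level seen mainly in normal livers can come close to it, so these values support nothing further. Serpina1a was nearest to Igf1 (0.25), the growth factor gene under growth hormone, Serpina1b to Serpinc1 (0.15), which encodes antithrombin, Serpina1d to Ces1c (0.19), a carboxylesterase gene, and Serpina11 to Ptpn3 (0.33). Serpina1c was nearest to its antisense neighbour B430119L08Rik (0.2).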

How the data were processed

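The authors deposited raw read counts, whole numbers for 46078 Ensembl genes; 4 further per-sample columns held no value. Tools listed in the submitters' processing notes, with no role or order, were DESeq2 1.28.0, StringTie 1.3.3b, HISAT2 2.1.0, FastQC 0.11.5 and CASAVA 1.8.2, and the build was GRCm38. Annotation, strand setting and the treatment of multiply matching reads are not given in the sources used here. Per-copy counts are therefore uncertain, and the summed Serpina1 count may lack multiply matching reads. GENCODE M21 (GRCm38) matched 45143 genes (98%).

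Groups came from the labels. In R 4.3.3, edgeR 4.0.16 filtered genes (filterByExpr, 15744 left), scaled libraries by TMM and fitted all 4 groups together (robust glmQLFit, glmQLFTest, two-sided, Benjamini-Hochberg over all genes). Serpina1a to Serpina1e were also fitted as 1 summed row. Shares were tested by exact permutation of libraries. The procedure was tested on simulated counts. Counting intervals and floors cover counting error only. No replicate pair agreed within sampling noise (lowest chi-square per gene 26.9). Alternatives were other scalings, other filters, a fit of only the groups compared, DESeq2 1.42.0 and each library left out; 2 settings without libraries high in acute-phase RNA were added after seeing the data.

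The 10 genes and all lists were chosen with earlier results of these data known. Named genes are the 10 in every comparison, up to 3 called genes per list and comparison with the smallest p, and the 3 nearest in profile; clade A genes are placed in chromosome order. Single marker levels (Alb, Elane, Prtn3, Mpo, Ctsg, Adipoq, Lep, Plin1) and overlapping genes were chosen after values were seen. Some genes chosen by this rule are not reported here.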

Additional observations from a re-analysis of the deposited data

Results flagged for a closer look

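Of 44 sets of 4 libraries (each gene, and the summed Serpina1 copies, in each group), 8 held a library far from the other 3 by Dixon's criterion for 4 values; chance alone marks about 1 in 20 such sets. In DLE livers model_DLE_361 stood above the other 3 libraries for Serpina1a (2600 CPM), Serpina1e (160 CPM) and the summed Serpina1 copies (13000 CPM). In model livers model_327 stood high for Serpina7 (940 CPM) and low for the summed Serpina1 copies (5410 CPM), and model_387 stood high for Serpina1e (642 CPM). In PGZ livers model_PGZ_360 was marked for Serpina9 at 0.0403 CPM, which is 1 read beside 0 in the others. In normal livers normal_376 stood low for Serpina1d (878 CPM). The libraries model_DLE_361, model_327 and model_387 also had the highest acute-phase sums of their groups (47300, 174000 and 85000 CPM), and the part of that RNA in these values was not tested.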

How the results depend on the processing

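Of 921 alternative values of the 10 genes over 6 comparisons, 827 kept their direction and their side of the threshold, 40 lost a call, 14 gained one and 40 changed sign, none of the last being called in either fit. The 5 genes called in model versus normal became 2 with no filter on low counts, 2 in a fit of only the 2 groups compared, and 2 to 5 with 1 library left out (2 without normal_346, normal_349, normal_409 or model_327, and 3 without model_407). The 5 called in DLE versus normal became 3 with no filter and 3 to 7 with 1 library left out (3 without model_DLE_401). The 6 called in PGZ versus normal ranged from 5 to 7 with 1 library left out. They became 8, with 1 higher, in a fit of only these groups (29.6% of all genes called). With DESeq2 they became 7, all lower (19.1% of all genes). Without the 4 libraries highest in acute-phase RNA they became 9, with 1 higher (28.8% of all genes). The summed Serpina1 log2 fold change in model versus normal was -1.38 (adjusted p = 0.083) in a fit of only these groups and -1.29 without model_327 and model_387 (adjusted p = 0.12) and without all 4 libraries highest in acute-phase RNA (adjusted p = 0.029, still called), and ranged from -1.57 to -1.29 with 1 library left out. In DLE versus model it ranged from -0.20 to 0.30 with 1 library left out and was -0.32 without the 4 libraries highest in acute-phase RNA, and in PGZ versus model it ranged from -0.35 to -0.15. Without the 2 model libraries highest in acute-phase RNA, Serpina1e changed sign in DLE versus model (1.57) and in PGZ versus model (1.25), and Serpina7 in PGZ versus model (0.62). Under the same setting Serpina11 changed sign in DLE (0.34) and PGZ versus model (0.21), Serpina12 in DLE (0.85) and PGZ versus model (1.07), and Serpina1d in DLE versus model (-0.03). Without all 4 libraries highest in that RNA, the PGZ versus model values were 1.14 for Serpina1e, 0.63 for Serpina7, 1.19 for Serpina12 and -0.04 for Serpina1b, and the DLE versus model values 1.02 for Serpina12, -0.47 for Serpina1a, -0.10 for Serpina1b and -0.32 for Serpina1d, all with changed sign. In DLE versus PGZ the changed values were -0.10 for Serpina11, -0.06 for Serpina1b and -1.69 for Serpina1e. With 1 library left out Serpina1e ranged from -3.93 to 1.55 in DLE versus model and from -2.56 to 1.23 in PGZ versus model, both highest without model_387, and Serpina7 from -1.96 to 0.58 in PGZ versus model, highest without model_327. These settings without acute-phase libraries were chosen after seeing the data. The cause of these differences was not tested, beyond the smaller number of libraries or larger number of genes that each setting entails. No paired analysis was possible because the numbers in the library names are not shared between groups. The 4 libraries a group, the uncertain assignment of reads to Serpina1 copies and single reads of Serpina9 limit the precision.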

Other observations

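Gm8893, an unprocessed pseudogene within the annotated span of Serpina1b and without exonic overlap with it, averaged 16.8 CPM in PGZ, 31 in DLE, 19.9 in model and 153 CPM in normal livers. It was picked after its values were seen and was not tested for a difference here.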
